A study of Mus musculus with 16 samples.

Results

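The livers of mice that ate a selenomethionine (SeMet) diet, without any cadmium, were compared with the livers of control mice. The comparison held 8 of the 16 mice sequenced, and it was described over 10483 protein-coding genes whose mean was at least 1 TPM, a share of transcripts corrected for gene length and library size, out of 57010 genes listed. For 3 months the Se group (mice 39, 40, 41 and 44) ate grain that held SeMet at 2 ppm. The control group (mice 27, 28, 29 and 30) was labelled only as control, and its label names neither selenium nor cadmium. All mice were wild-type C57BL/6J males, 8 to 12 weeks old by the methods, and 8 weeks old when the diet began by the outline of the experiment. The other 8 mice received CdCl2 by daily intraperitoneal injection at 1.25 mg/kg for the last 7 days, either on the SeMet diet (Cd+Se, mice 13 to 16) or without it (Cd, mice 1, 2, 5 and 6). The selenium content of the control diet and any vehicle injection are not given in the sources used here, and tissue was bulk liver.

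SeMet is the form of selenium found in most plant foods. It enters the methionine pool, is incorporated into proteins in place of methionine, and releases its selenium through the transsulfuration enzymes for the synthesis of selenocysteine. The liver uses selenocysteine for glutathione peroxidases, thioredoxin reductases and the selenium carrier selenoprotein P, which it secretes. Transcripts of several selenoproteins fall when selenium is scarce, and change little once the requirement is met.

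The 8 libraries were not equally alike. Pearson's r across genes on log2(TPM + 1) was 0.985 to 0.990 between control mice and 0.973 to 0.985 between Se mice. Se mouse 40 stood furthest from its group (mean r 0.975, against 0.981 to 0.982 for the other Se mice), and it held the highest value of the 8 mice in 4816 of the 10483 genes. Mitochondrial transcripts were 13.6% of its TPM, against 14.5 to 17.0% in the other Se mice and 16.4 to 17.3% in control mice. The median SD over genes was 0.212 in the Se group and 0.143 in the control group, and 0.160 in the Se group without mouse 40. Medians of many gene lists and pathways are given with and without mouse 40, beside a median over all genes of -0.05 without it.

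Single genes differed little between the diets relative to the spread among mice. Of 11766 genes tested with limma on log2(TPM + 1), 0 (0%) passed an adjusted p of 0.05, and the lowest adjusted p was 0.482. At an unadjusted p under 0.05, 193 of the 10483 protein-coding genes were higher in Se mice (1.84%) and 190 were lower (1.81%). In 125 genes (1.19%) every Se mouse was above every control mouse, and in 195 (1.86%) every Se mouse was below. Chance alone would separate about 1 gene in 70 in each direction, because the mice can be split into these groups in 70 ways. The 320 separated genes were therefore close to the number that chance would give. The 383 genes at an unadjusted p under 0.05 were fewer than chance would give, a share of 0.05. Separation, called "without overlap" below, is a description of the mice. The median log2 change over all 10483 genes was 0.006. No gene below therefore passed the test in Se against control, and "higher" and "lower" describe the measured means. Log2 changes are on the log2(TPM + 1) scale, on which weakly expressed genes appear to change less than they did.

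Cyp26a1 and Cyp26b1, whose enzymes break down retinoic acid, were lower in Se mice without overlap. Cyp26a1 (chromosome 19, GRCm38), the hydroxylase that clears all-trans retinoic acid in liver, had the largest decrease of any gene without overlap. It is induced by retinoic acid through a pair of receptor binding sites just upstream of its start. The promoter is shown because it carries that pair: 140 bases before the annotated gene in RefSeq's GRCm38.p6, chr19:37697658-37697797, plus strand, with the pair in capitals.
Cyp26a1: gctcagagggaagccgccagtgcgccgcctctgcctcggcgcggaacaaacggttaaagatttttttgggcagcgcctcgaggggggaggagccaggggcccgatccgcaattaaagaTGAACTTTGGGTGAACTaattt
The capitals mark AGTTCA repeated after a gap of 5 bases, read on the opposite strand, from base -32 to base -16 relative to the RefSeq start. Searched on both strands, 8 of 32851 mouse promoters (0.0244%) held these letters, and Cyp26a1 was the sole match among the 23 promoters found for the 24 genes with the largest changes without overlap.

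Cyp26a1 was 0.60, 0.73, 0.95 and 1.57 TPM in Se mice 39, 40, 41 and 44, against 3.75, 3.83, 5.05 and 4.67 TPM in control mice 27 to 30. Every Se mouse was below every control mouse. The means were 0.963 ± 0.430 TPM (SD, n = 4) and 4.33 ± 0.638 TPM, a log2 change of -1.46 (SE 0.27, limma adjusted p = 0.482). Its paralog Cyp26b1 was 0.06, 0.92, 0.82 and 0.25 TPM in the Se mice and 2.26, 2.62, 1.02 and 1.63 TPM in the control mice. The groups did not overlap, but Se mouse 40 and control mouse 29 were close. The log2 change of Cyp26b1 was -0.94 (SE 0.22). A further paralog, Cyp26c1, was at most 0.18 TPM in any of these mice, and its groups overlapped. Leaving out any 1 of the 8 mice kept the change of Cyp26a1 between -1.59 and -1.37 and that of Cyp26b1 between -1.10 and -0.78.

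Other retinoid genes were placed beside them in a list put together after these values were seen. Of 18 tested members, 12 were lower and 6 higher, with a median of -0.12. Without overlap, 3 were lower (1.86% of all genes), Stra6l being the other one. Stra6l, a retinol-binding protein receptor of liver, was 22.8 ± 1.88 TPM in Se mice and 29.1 ± 1.48 TPM in control mice (log2 change -0.34, SE 0.19). Rdh16, a retinol dehydrogenase, was 32.0 ± 7.34 TPM against 48.6 ± 20.3 TPM, with overlapping mice. The wider KEGG retinol metabolism pathway, which also holds many drug-metabolizing enzymes, showed no such direction: 34 of its 61 genes were higher, with a median of 0.04.

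**Figure D1:**
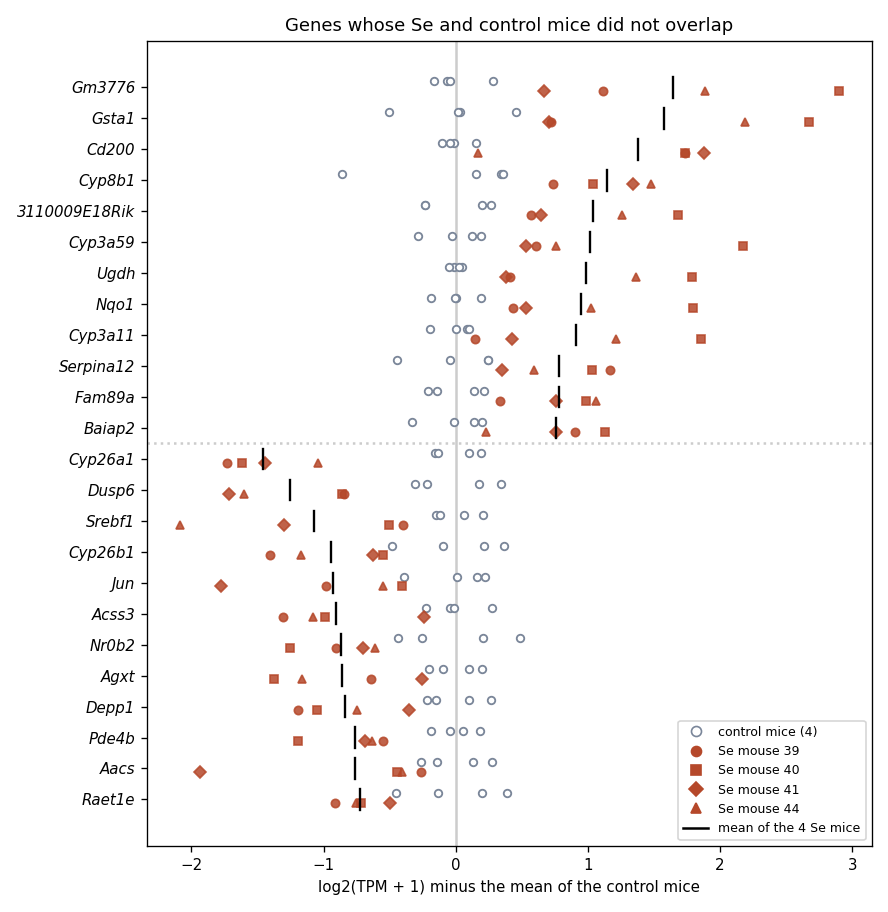
Each row is a protein-coding gene whose 4 Se mice did not overlap the 4 control mice, the 12 with the largest positive change above the dotted line and the 12 with the largest negative change below it; the horizontal axis is log2(TPM + 1) minus the mean of the control mice. Open circles are control mice, filled symbols are the 4 Se mice and the black bar is their mean. Mouse 40 (square) is the highest Se mouse in 8 of the 12 upper genes, while in the lower 12 the lowest mouse varies.

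Bile acid synthesis genes differed in both directions. Nr0b2 encodes SHP, a nuclear receptor without a DNA-binding domain that represses bile acid synthesis, and it was 7.02, 5.29, 8.23 and 8.84 TPM in Se mice 39, 40, 41 and 44 against 11.59, 10.12, 16.31 and 20.02 TPM in control mice. All Se mice were below all control mice (means 7.34 ± 1.56 and 14.5 ± 4.52 TPM, log2 change -0.87, SE 0.22). Cyp8b1, the sterol 12-alpha-hydroxylase that directs synthesis to cholic acid, was 54.39, 67.32, 83.15 and 91.90 TPM in Se mice against 41.26, 36.00, 41.75 and 17.36 TPM in control mice. Its Se mice were all above the control mice, with a log2 change of 1.15 (SE 0.36). Cyp7a1, the rate-limiting enzyme of the classical pathway, was 167 ± 48.6 TPM in Se mice and 98.9 ± 26.4 TPM in control mice (log2 change 0.74, SE 0.30). Se mouse 39, at 101.96 TPM, lay inside the control range of 70.91 to 134.60 TPM. Hsd3b7, which acts after Cyp7a1, was not higher (102 ± 9.49 against 118 ± 13.1 TPM). Over 21 tested genes of bile acid synthesis and transport, 10 were higher, 11 lower and the median was -0.01. Without mouse 40, 8 of 21 were higher and the median was -0.12. Of its members 1 was higher and 3 were lower without overlap, as were 1.19% and 1.86% of all genes.

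Glutathione-linked and other detoxifying enzymes were prominent among the higher genes. Gsta1, a glutathione S-transferase, was 5.35, 23.58, 5.26 and 16.54 TPM in Se mice 39, 40, 41 and 44, and 4.29, 1.71, 2.93 and 2.89 TPM in control mice. Its near copy Gm3776, which lies beside it on chromosome 9, was 6.67, 25.37, 4.63 and 12.05 TPM against 2.37, 3.29, 2.15 and 2.43 TPM. How reads were divided between these paralogs is not given in the sources used here, so the pair counts as 1 observation. The log2 changes were 1.57 (SE 0.55) and 1.64 (SE 0.54), and without mouse 40 they were 1.20 and 1.22.

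Nqo1, the quinone reductase that is a classic target of the transcription factor NRF2, was 4.32, 12.70, 4.72 and 7.02 TPM in Se mice against 3.51, 2.96, 2.93 and 2.46 TPM in control mice. Its log2 change was 0.95 (SE 0.27), and 0.66 without mouse 40. Srxn1, which repairs over-oxidized peroxiredoxins, was 13.92, 29.06, 11.92 and 20.48 TPM against 9.89 to 11.26 TPM, also without overlap (log2 change 0.71, SE 0.23). Mice 40 and 44 were the 2 highest in each of these genes, and mice 39 and 41 lay nearer to the control range but above it. Gclm, the modifier subunit of the enzyme that makes gamma-glutamylcysteine, followed the same order of mice: 183.62 and 173.90 TPM in mice 40 and 44, and 105.88 and 99.22 TPM in mice 39 and 41, against 96.97 to 104.28 TPM in control mice. Ftl1, the ferritin light chain, was 6676 and 5387 TPM in mice 40 and 44, 3295 and 3463 TPM in mice 39 and 41, and 3003 to 3426 TPM in control mice.

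Of 36 tested genes of glutathione synthesis and NRF2 targets, 33 were higher in Se mice and the median log2 change was 0.28, against 51.8% of all genes higher and a median of 0.006. Of these, 6 were higher at an unadjusted p under 0.05, 3 were higher without overlap (Gsta1, Nqo1 and Srxn1) and 0 were lower by either measure. The shares of all genes that were higher by these measures were 1.84% and 1.19%. Mouse 40 was the highest of the 8 mice in 28 of the 36. Without mouse 40, 24 of 36 were higher and the median was 0.08, against 34.3% of all genes and a median of -0.05. Relative to all genes of the same mouse, the mean of the list was 0.06, 0.76, 0.14 and 0.49 above the control mean in mice 39, 40, 41 and 44, and the control mice lay between -0.03 and 0.03. Hmox1, the inducible heme oxygenase and also on this list, was 10.3 ± 4.0 TPM in Se mice and 9.85 ± 1.23 TPM in control mice, with a log2 change of 0.01 (SE 0.25).

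Enzymes that act on drugs and steroids included several of the same kind. Ugdh makes UDP-glucuronic acid, the donor for glucuronidation, and was 99.42, 259.76, 97.24 and 193.79 TPM in Se mice against 71.80 to 77.09 TPM in control mice (log2 change 0.98, SE 0.29). The control mice were closely grouped, and Se mice 40 and 44 again stood above mice 39 and 41. The antioxidant response element core TGACNNNGC, to which NRF2 binds, occurred in 2 of the 12 promoters of the higher genes (Ugdh and Cyp8b1), in 2 of the 11 promoters found for the lower genes (Aacs and Pde4b), and in 12.4% of all 32851 promoters. A stretch of the Ugdh promoter is shown for one of these matches, in capitals, from base -132 to base -124 on the gene's strand (GRCm38.p6, chr5:65435950-65436022, minus strand).
Ugdh: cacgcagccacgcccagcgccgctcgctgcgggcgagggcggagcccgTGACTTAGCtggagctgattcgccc
A match is a description of the letters, and neither Nqo1 nor Gsta1 had one in the window searched.

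Cyp3a11, the main drug-metabolizing CYP3A of mouse liver, was 527.07, 1725.92, 638.60 and 1103.02 TPM in Se mice against 416.38 to 510.99 TPM in control mice (log2 change 0.91, SE 0.33, and 0.59 without mouse 40). Its neighbours in the family, Cyp3a59 and Cyp3a25, were likewise higher without overlap, with log2 changes of 1.02 (0.63 without mouse 40) and 0.47. The glucuronosyltransferase Ugt2b5 was 1008 ± 233 TPM against 707 ± 115 TPM, without overlap. Cyp2d26, in contrast, was 486 ± 58.1 TPM in Se mice and 616 ± 45.4 TPM in control mice (log2 change -0.35, SE 0.11). Over the 28 tested xenobiotic cytochrome P450 genes, 9 were higher, 19 were lower and the median was -0.09. At an unadjusted p under 0.05, 5 were higher and 4 lower, as were 1.84% and 1.81% of all genes. The list therefore did not move as 1 group.

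Enzymes of serine and asparagine synthesis were higher in some Se mice. Asns, asparagine synthetase and a target of the stress factor ATF4, was 2.00, 17.30, 4.62 and 6.46 TPM in Se mice 39, 40, 41 and 44 against 1.08, 2.17, 0.70 and 0.94 TPM in control mice. Its groups overlapped at 1 mouse on each side (log2 change 1.68, SE 0.43, and 1.21 without mouse 40). Phgdh, which starts serine synthesis from glycolysis, was 7.73 and 3.44 TPM in mice 40 and 44, 0.92 and 0.53 TPM in mice 39 and 41, and 0.28 to 0.71 TPM in control mice. Psat1, the next enzyme, was 5.37 and 4.62 TPM in mice 40 and 44, 1.19 and 0.71 TPM in mice 39 and 41, and 0.30 to 1.04 TPM in control mice. Of 32 tested ATF4 and unfolded protein response genes, 21 were higher (median 0.13). At an unadjusted p under 0.05, 6 were higher, as were 1.84% of all genes. Only 1 was higher without overlap (1.19% of all genes), Herpud1, a component of endoplasmic reticulum degradation. The median of the list was -0.02 without mouse 44, 0.31 without mouse 41 and 0.16 without mouse 40, so the sign of the median depended on mouse 44. Relative to all genes, the mean of the list was 0.23, 0.34, -0.02 and 0.50 in mice 39, 40, 41 and 44. In control mice it was -0.17 to 0.10. Fgf21, a liver hormone that ATF4 and PPARalpha both induce, was 14.60, 133.32, 3.19 and 14.43 TPM against 2.80 to 8.78 TPM.

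The genes through which SeMet itself passes were mostly level. Over 33 genes of the methionine cycle and transsulfuration, 13 were higher, 20 lower and the median was -0.03. Gnmt, the methyltransferase that disposes of excess methyl groups, was 875 ± 95.9 TPM in Se mice and 1140 ± 157 TPM in control mice (log2 change -0.38, SE 0.15). Csad, which makes hypotaurine from a cysteine product, was 155.91, 471.17, 207.26 and 366.32 TPM in Se mice against 74.16 to 182.67 TPM in control mice (log2 change 1.06, SE 0.38). Mouse 39 lay inside the control range for Csad. Cbs, at the entry to transsulfuration, had a log2 change of -0.25 (SE 0.15).

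Selenoprotein transcripts differed little in number or size. Of 19 tested selenoprotein genes, 12 were higher, 7 lower and the median log2 change was 0.03. At an unadjusted p under 0.05, 2 were higher and 1 lower, as were 1.84% and 1.81% of all genes. Gpx1, the abundant cytosolic glutathione peroxidase whose transcript is sensitive to selenium supply, was 1577.53, 1278.50, 1739.18 and 1815.69 TPM in Se mice and 1379.02, 1573.55, 1556.92 and 2017.20 TPM in control mice (log2 change -0.02, SE 0.13). Selenop, the secreted carrier, was 3711 ± 419 TPM against 3677 ± 214 TPM (log2 change 0.01, SE 0.13), and Selenow was 79.3 ± 12.6 TPM against 74.9 ± 7.0 TPM (log2 change 0.07, SE 0.12). The mice overlapped for all of these, and the standard errors give the size of change that could have been missed.

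Gpx4, the peroxidase that reduces lipid hydroperoxides in membranes, was 245.15, 451.55, 269.06 and 334.65 TPM in Se mice 39, 40, 41 and 44 against 277.57, 241.33, 253.42 and 216.81 TPM in control mice. Mice 40 and 44 were above all control mice and mice 39 and 41 were among them. The log2 change was 0.36 (SE 0.16), and 0.19 without mouse 40. Txnrd3, a testis-rich thioredoxin reductase at 2.59 to 4.79 TPM here, had a log2 change of 0.32 (SE 0.14). Txnrd1, the cytosolic enzyme and an NRF2 target, was 46.60, 73.31, 48.17 and 67.67 TPM against 47.11 to 53.25 TPM, again with mice 40 and 44 apart. Dio1, the deiodinase that makes active thyroid hormone, was 60.48, 23.69, 51.11 and 32.47 TPM against 44.16 to 62.02 TPM, with the same 2 mice low (log2 change -0.45, SE 0.23). Selenoh was 9.76 ± 2.28 TPM against 10.7 ± 0.939 TPM.

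Sephs2, which makes the selenophosphate used for selenocysteine and is itself a selenoprotein, was the member of the list without overlap. It was 293.63, 334.15, 317.61 and 327.61 TPM in Se mice and 368.79, 374.31, 385.50 and 367.02 TPM in control mice (log2 change -0.23, SE 0.11, and -0.26 without mouse 40). All other tested genes of selenocysteine synthesis and insertion overlapped between groups, with 12 of 15 higher and a median of 0.07. Mouse 40 was the highest of the 8 mice in 10 of the 15, and without it 6 were higher and the median was -0.01. Among 11 genes of selenium handling and excretion, Lrp1 and Inmt were lower without overlap. Inmt methylates small amines and selenium compounds, and was 451 ± 151 TPM against 681 ± 67.2 TPM. Lrp1, a lipoprotein receptor of the family that also holds the selenoprotein P receptors, was 117 ± 13.5 TPM against 155 ± 14.9 TPM (log2 change -0.40, SE 0.13).

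**Figure D2:**
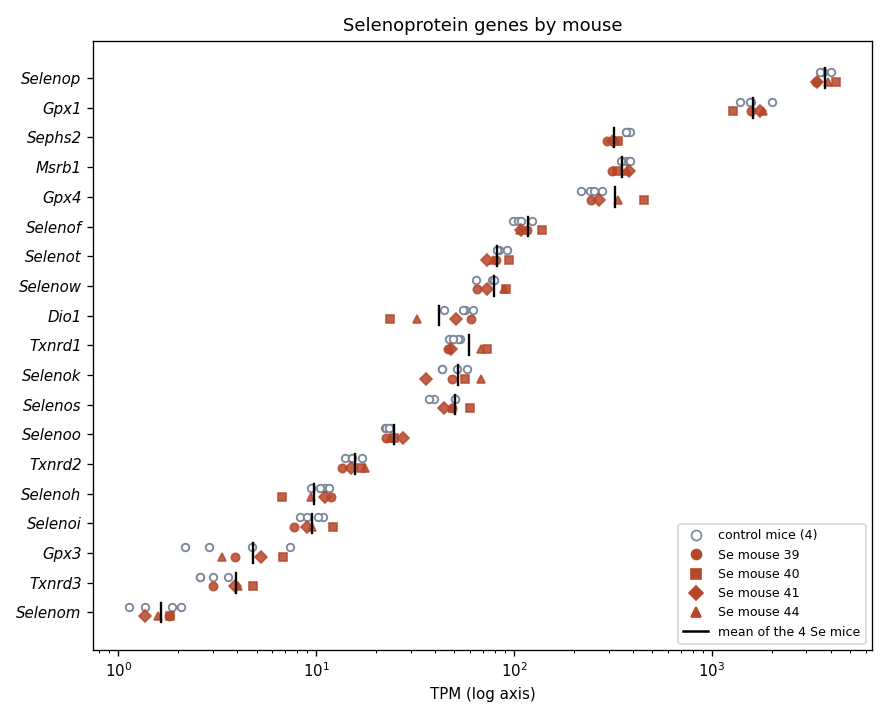
TPM of the 19 tested selenoprotein genes in each mouse, on a log axis, ordered by the control mean. Open circles are control mice, filled symbols are Se mice and the bar is the mean of the 4 Se mice; the groups overlap in all genes but Sephs2, and Se mouse 40 lies apart in Gpx4, Dio1 and Selenoh.

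The metallothioneins Mt1 and Mt2, which bind zinc and cadmium, were scattered in both groups. Mt1 was 64.34, 431.03, 334.32 and 214.79 TPM in Se mice and 221.04, 50.91, 96.77 and 93.99 TPM in control mice (log2 change 1.06, SE 0.48). Mt2 was 19.58 to 306.06 TPM in Se mice and 26.42 to 150.14 TPM in control mice. All these values were far below the lowest Cd mouse, at 3178 TPM for Mt1.

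Several genes that act back on the ERK signalling cascade were lower in Se mice. Dusp6, a phosphatase that inactivates ERK and is induced by ERK activity, was 14.67, 14.56, 7.59 and 8.27 TPM in Se mice 39, 40, 41 and 44 against 21.80, 30.93, 34.81 and 23.24 TPM in control mice. No Se mouse reached the lowest control mouse (log2 change -1.26, SE 0.25, and -1.39 without mouse 40). Spry4, a Sprouty inhibitor of receptor signalling, was 0.72, 0.72, 0.74 and 0.54 TPM against 1.07 to 2.29 TPM. Spred1 was 3.48 ± 0.491 TPM against 5.53 ± 0.467 TPM, and Spred2 was 1.73 ± 0.245 TPM against 2.96 ± 0.589 TPM, both without overlap. The log2 changes of Spry4, Spred1 and Spred2 were -0.65, -0.55 and -0.53. Etv5, a transcription factor induced by ERK whose mean over all libraries was too low for the model, was 0.81, 0.64, 0.65 and 0.72 TPM against 1.06, 1.32, 1.44 and 1.1 TPM (two-sided exact permutation test: p = 0.0286, which no split of 4 against 4 mice can go below).

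This group was put together after the values of its leading genes were seen. Of 9 tested members, 5 were lower and 4 higher, with a median of -0.53, and 4 were lower without overlap (1.86% of all genes). The median was 0.05 when members with a mean under 5 TPM were left out, so the direction of the list rested on its weakly expressed genes. Egfr, the epidermal growth factor receptor, was 101.88, 37.92, 51.77 and 80.45 TPM against 98.87 to 110.89 TPM, with mouse 39 inside the control range. Jun, an immediate early transcription factor, was 4.95, 7.88, 2.43 and 7.01 TPM in Se mice and 7.97, 12.15, 12.72 and 10.81 TPM in control mice, nearly touching at Se mouse 40 and control mouse 27. Pde4b, a phosphodiesterase that degrades cyclic AMP, was 1.89 ± 0.532 TPM against 3.85 ± 0.523 TPM without overlap (log2 change -0.77, SE 0.18). Myc was the opposite in 3 of the mice, at 2.61, 8.48 and 9.41 TPM in mice 40, 41 and 44, but 0.75 TPM in mouse 39 and 0.40 to 1.07 TPM in control mice. Over the whole list of 29 immediate early and heat shock genes the median was 0.01, and -0.10 without mouse 40.

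Regulators of lipid and glucose synthesis were lower. Srebf1, the transcription factor that drives fatty acid synthesis, was 126.69, 117.65, 67.36 and 38.62 TPM in Se mice 39, 40, 41 and 44 against 151.12, 192.89, 153.82 and 174.65 TPM in control mice. All Se mice were below all control mice, but the Se mice spread widely (log2 change -1.07, SE 0.47). Mlxipl, which encodes the glucose-responsive factor ChREBP, was 114 ± 8.48 TPM against 151 ± 9.92 TPM without overlap. Aacs, which uses ketone bodies for lipid synthesis, was 40.84, 35.95, 12.17 and 36.81 TPM against 40.88 to 59.77 TPM, and Se mouse 39 and control mouse 30 were nearly equal. The fatty acid transporter Cd36 was 8.89 ± 3.88 TPM against 13.4 ± 2.46 TPM, with overlap.

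Of 25 tested lipogenesis genes, 22 were lower and 3 higher, with a median of -0.22. Leaving out 1 mouse moved the median between -0.10 (without mouse 41) and -0.46 (without mouse 40, where 24 were lower). Fasn, fatty acid synthase, showed the division among mice: it was 252.26 and 381.96 TPM in mice 39 and 40 and 52.40 and 59.02 TPM in mice 41 and 44, against 141.37 to 265.47 TPM in control mice. G6pc, the last enzyme of glucose output, was 481.92, 208.61, 78.53 and 91.84 TPM against 367.09 to 558.91 TPM (log2 change -1.43, SE 0.42). Its Se mice were low in 3 of 4. Over 18 genes of gluconeogenesis and glycogen, 14 were lower and the median was -0.19, and -0.28 without mouse 40.

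Cholesterol synthesis went the other way in a single mouse. Mouse 40 was the highest of the 8 mice in 25 of the 26 tested genes of the pathway. With all Se mice 23 of 26 were higher and the median was 0.21, while without mouse 40 only 7 of 26 were higher and the median was -0.21. Mouse 40 was also apart for major urinary proteins and other male growth hormone targets, whose mean relative to all genes was -2.07 in that mouse, 0.17 to 0.71 in the other Se mice and -0.49 to 0.44 in control mice. The median of that list was -0.10 with mouse 40 and 0.29 without it.

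Markers of sinusoidal endothelial cells were lower in Se mice. Of 11 tested markers 10 were lower, 5 of them without overlap, and the median was -0.39, against 195 of all 10483 genes lower without overlap. In bulk liver, fewer cells of a type and less RNA per cell cannot be told apart. Dnase1l3, an endonuclease of these cells, was 6.85, 8.24, 7.5 and 4.88 TPM in Se mice against 11.45, 12.21, 8.52 and 9.41 TPM in control mice. Kdr, the main receptor for vascular endothelial growth factor, was 5.25 ± 0.944 TPM against 8.02 ± 1.06 TPM, also without overlap. Lyve1, a hyaluronan receptor, was 1.38 to 1.88 TPM against 1.62 to 3.72 TPM. Stab1, a scavenger receptor on the same list, was the exception at 9.70 to 21.65 TPM against 9.08 to 11.50 TPM. Relative to all genes, the mean of the list was -0.28, -0.30, -0.27 and -0.58 in mice 39, 40, 41 and 44 and -0.08 to 0.09 in control mice, so the groups did not overlap. The summed level of the 11 markers was 96.4 to 130 TPM in Se mice and 125 to 144 TPM in control mice, which did overlap.

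Other cells of the liver were less uniform. All 12 Kupffer cell markers had a lower mean in Se mice, with a median of -0.20 (-0.38 without mouse 40), but 0 of them were without overlap. Relative to all genes, their mean was -0.57 and -0.52 in mice 39 and 44 and 0.08 and 0.04 in mice 40 and 41, against -0.18 to 0.15 in control mice. Of 8 stellate cell markers 7 were lower (median -0.18). MHC class II genes, expressed by antigen-presenting cells and listed here after their values were seen, were lower in 6 of 6 tested. Of these, 5 were lower at an unadjusted p under 0.05, as were 1.81% of all genes, and 0 were without overlap. Relative to all genes, their mean was -0.10 in Se mouse 39, above control mouse 29 at -0.31. Cd74, the invariant chain, was 34.58, 29.01, 29.48 and 19.60 TPM in Se mice against 42.43, 46.45, 33.03 and 45.65 TPM in control mice, and H2-Ab1 was 10.7 ± 3.51 TPM against 17.1 ± 3.04 TPM. The 10 hepatocyte markers were level with all Se mice (5 higher, 5 lower, median 0.01). Without mouse 40, 2 were higher and the median was -0.12. Their summed level was 72413 to 131848 TPM in Se mice and 73473 to 94679 TPM in control mice, so the libraries were of liver. Markers of adipocytes, muscle, exocrine pancreas and cholangiocytes summed to at most 50.5 TPM in any of these mice, and 0 or 1 gene of each was tested. The part of cell composition in the differences above was not tested.

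**Figure D3:**
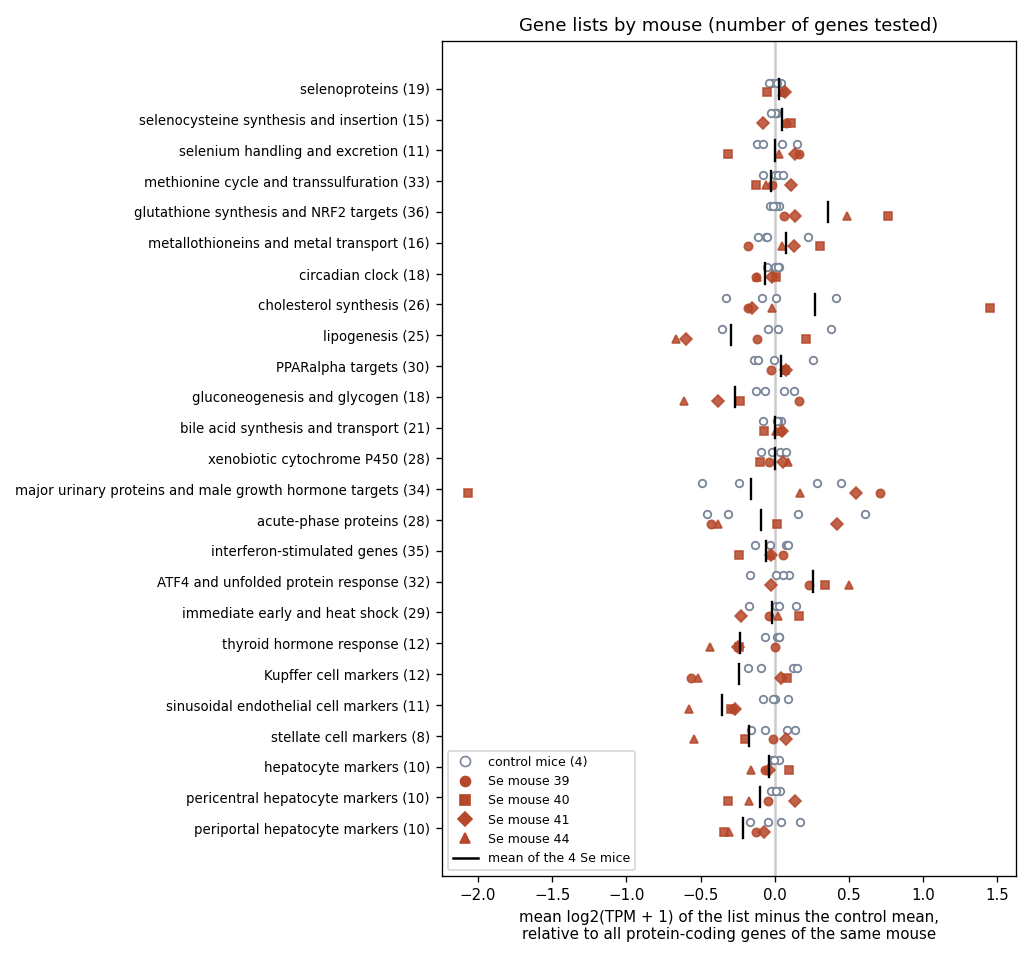
Mean log2(TPM + 1) of each gene list minus the control mean, relative to all protein-coding genes of the same mouse, for 19 function lists and 6 cell marker lists, with the number of tested genes in brackets. Open circles are control mice, filled symbols are Se mice and the bar is the mean of the Se mice; the glutathione and NRF2 list and the sinusoidal endothelial markers separate the groups, and mouse 40 (square) lies alone for cholesterol synthesis and major urinary proteins.

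The remaining lists showed no separation of their means. The medians were -0.02 for 18 circadian clock genes, -0.02 for 30 PPARalpha targets, -0.03 for 28 acute-phase proteins, -0.03 for 35 interferon-stimulated genes, 0.10 for 16 metallothionein and metal transport genes, and -0.15 for 12 thyroid hormone response genes. Without mouse 40 these medians were -0.12, -0.05, -0.12, -0.06, -0.01 and -0.16 in the same order. Steap4, a metalloreductase counted with the acute-phase genes, was nevertheless lower without overlap, at 48.10, 51.87, 53.77 and 45.15 TPM against 63.68 to 98.64 TPM. Periportal hepatocyte markers had a median of -0.27 (7 of 10 lower) and pericentral ones -0.13 (8 of 10 lower). Uroc1, a periportal enzyme of histidine breakdown, was 94.4 ± 11.5 TPM against 119 ± 6.94 TPM without overlap. Tested markers of neutrophils (4), monocytes (6), erythroid cells (5) and proliferating cells (2) had medians of -0.22, -0.11, 0.17 and 0.40, and B and T lymphocytes had 1 each. Without mouse 40 the erythroid median was -0.03.

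Several metabolic enzymes outside these groups were lower without overlap. Agxt, which removes glyoxylate as glycine in peroxisomes, was 44.45, 26.26, 58.42 and 30.73 TPM in Se mice against 74.91, 60.49, 65.39 and 80.36 TPM in control mice (log2 change -0.86, SE 0.22). Acss3, a mitochondrial enzyme that activates propionate, was 0.92, 1.4, 3.04 and 1.25 TPM against 4.76, 3.62, 3.08 and 3.73 TPM (log2 change -0.90, SE 0.22). Mouse 41 was the nearest to the control mice in both, and for Acss3 it was nearly equal to control mouse 29. Depp1, a FOXO target, was 6.28 ± 1.94 TPM against 11.8 ± 2.01 TPM, and Raet1e, a ligand of the natural killer receptor NKG2D, was 0.705 ± 0.207 TPM against 1.86 ± 0.713 TPM.

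Among the higher genes, Cd200, a surface glycoprotein that restrains myeloid cells, was 3.77, 3.77, 4.26 and 0.61 TPM in Se mice and 0.33, 0.59, 0.42 and 0.39 TPM in control mice. The separation was slight between Se mouse 44 and control mouse 28 (log2 change 1.38, SE 0.39). Serpina12, which encodes the insulin-sensitizing serpin vaspin, was 17.8 ± 4.80 TPM against 9.81 ± 2.28 TPM. Baiap2, an adaptor between membranes and actin, was 13.7 ± 3.61 TPM against 7.54 ± 1.32 TPM. Fam89a (1.96 ± 0.621 against 0.703 ± 0.245 TPM) had the smallest unadjusted p of the 12 higher genes. 3110009E18Rik, a gene named only by its clone, was 0.74 to 2.76 TPM against 0.00 to 0.41 TPM.

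Pathways of the deposited KEGG annotation moved by small amounts. Among 280 pathways with 15 to 200 tested genes, the 6 highest medians were those of glutathione metabolism (0.18), drug metabolism by cytochrome P450 (0.17), DNA replication (0.15), xenobiotic metabolism by cytochrome P450 (0.15), chemical carcinogenesis (0.14) and steroid biosynthesis (0.14). The 4 detoxification pathways among them all hold Gstp2, Gm3776 and Gsta1 as leading genes, and are not separate observations. In glutathione metabolism 41 of 54 genes were higher, 8 at an unadjusted p under 0.05 and 3 without overlap, and 0 were lower by either measure. Among all genes, 1.84% were higher at that threshold and 1.19% were higher without overlap. Mouse 40 was the highest of the 8 mice in 28 of the 54, and in 4816 of all 10483 genes. Without mouse 40, 33 of the 54 were higher and the median was 0.09, against 34.3% of all genes and a median of -0.05. Without mouse 40 the medians of drug metabolism, DNA replication, xenobiotic metabolism and chemical carcinogenesis were 0.12, 0.08, 0.05 and 0.04. Gstp2, a pi-class transferase, was 65.9 ± 16.2 TPM against 34.8 ± 14.4 TPM (log2 change 0.96, SE 0.32). Nat8, which acetylates cysteine conjugates on their way to mercapturates, was 27.3 ± 7.30 TPM against 17.8 ± 1.62 TPM without overlap.

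In DNA replication 21 of 28 genes were higher. Lig1, the replicative ligase, was 2.67, 2.59, 1.25 and 1.73 TPM against 0.70 to 1.61 TPM, and Mcm6, a helicase subunit, was 6.34, 5.68, 2.00 and 2.22 TPM against 1.24 to 3.18 TPM, with overlap in both. Steroid biosynthesis, the pathway to cholesterol, had 0 genes at an unadjusted p under 0.05 and a median of -0.08 without mouse 40. The ribosome came seventh from the top, with 109 of 127 genes higher and a median of 0.13 (0.03 without mouse 40).

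The 6 lowest medians were those of the intestinal immune network for IgA (-0.15), inflammatory bowel disease (-0.12), arginine biosynthesis (-0.12), Staphylococcus aureus infection (-0.11), propanoate metabolism (-0.11) and histidine metabolism (-0.11). The 3 immune pathways among them shared H2-Ab1 and H2-DMa, so they repeat the MHC class II genes. In propanoate metabolism 23 of 27 genes were lower. At an unadjusted p under 0.05, 4 were lower (1.81% of all genes), and 3 were lower without overlap (1.86% of all genes). Besides Acss3 these included Pccb, a subunit of propionyl-CoA carboxylase, at 56.0 ± 3.69 TPM against 67.4 ± 4.80 TPM. In histidine metabolism 13 of 17 were lower, with Uroc1, Ftcd and Amdhd1, which act in the breakdown of histidine to glutamate, all without overlap. Ftcd was 106 ± 11.9 TPM against 133 ± 5.76 TPM, and Amdhd1 was 45.9 ± 3.38 TPM against 58.9 ± 4.63 TPM. Arginine biosynthesis had 11 of 15 genes lower and 0 at an unadjusted p under 0.05.

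Pathways tied to the diet or to cadmium damage stayed near the median of all genes. The medians were 0.07 for selenocompound metabolism (16 genes), 0.05 for ferroptosis (36 genes), 0.05 for cysteine and methionine metabolism (42 genes), 0.02 for the proteasome (42 genes) and -0.02 for oxidative phosphorylation (115 genes). Without mouse 40 the first 3 were 0.004, -0.004 and -0.008. Taurine and hypotaurine metabolism, with 11 genes below the size limit, had a median of 0.18 and 9 of 11 genes higher, led by Csad.

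**Figure D4:**
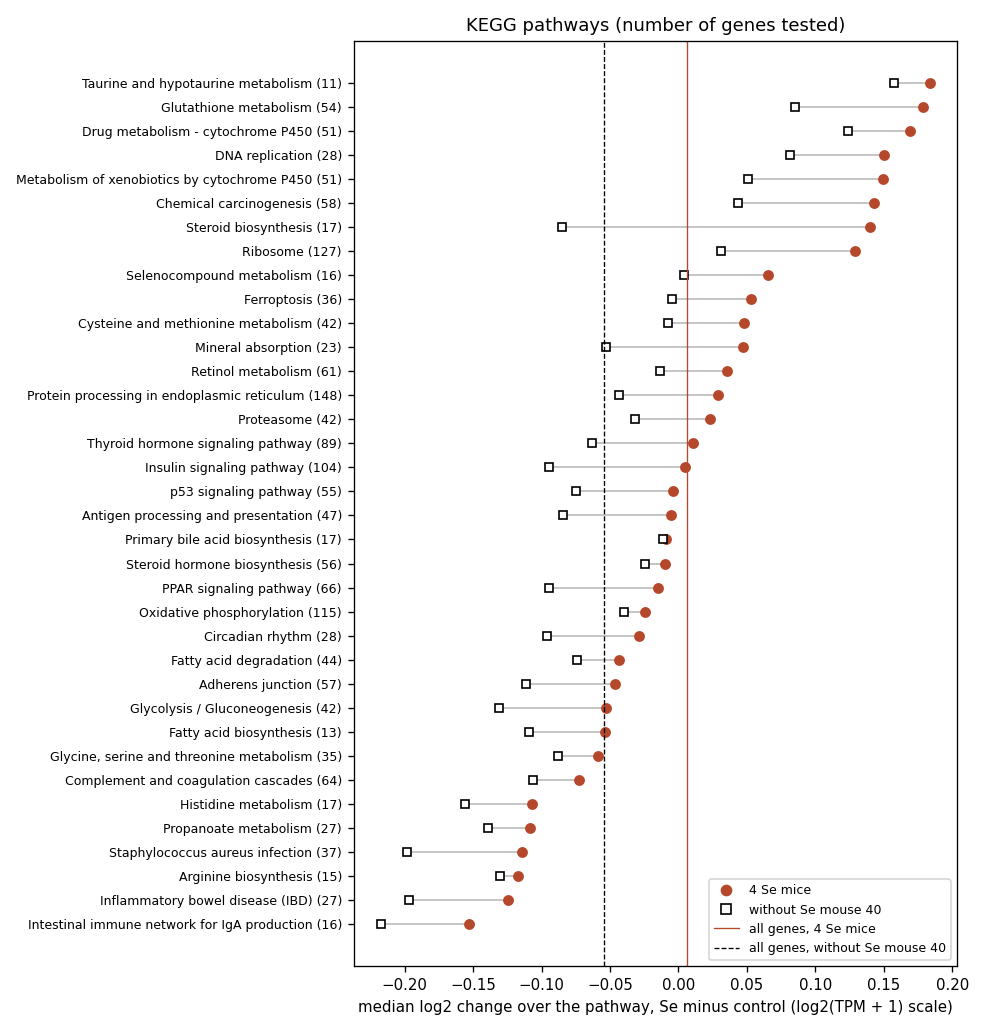
Median log2 change of Se against control over the tested genes of each KEGG pathway chosen by name or at either end of the ranking, with the number of genes in brackets. Circles use all 4 Se mice and squares leave out mouse 40; the vertical lines are the medians over all genes (0.006 solid, -0.05 dashed). Detoxification pathways stay to the right of both lines, and steroid biosynthesis crosses from 0.14 to -0.08.

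The same diet was also given with cadmium, in mice that are not in the comparison above. In Cd+Se against Cd, 1876 of 11766 genes (15.9%) passed an adjusted p of 0.05, and the median log2 change of protein-coding genes was 0.19. Of the 12 lower genes without overlap, 9 were also lower in Cd+Se than in Cd mice, as were 27.1% of all protein-coding genes. Cyp26a1 was 4.10, 0.74, 0.98 and 1.76 TPM in Cd+Se mice against 7.33, 4.21, 4.03 and 4.12 TPM in Cd mice, with 1 Cd+Se mouse, 13, inside the Cd range (log2 change -1.13, SE 0.27, limma adjusted p = 0.0156). Nr0b2 was 10.64, 10.32, 17.89 and 10.59 TPM against 25.57, 18.68, 18.19 and 26.00 TPM, without overlap (log2 change -0.81, SE 0.22, limma adjusted p = 0.0243). Depp1 had a log2 change of -1.51 (limma adjusted p = 0.0348). Cyp26b1, Acss3 and Agxt had log2 changes of -0.46, -0.50 and -0.54, with limma adjusted p-values of 0.154, 0.121 and 0.102.

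Of the 12 higher genes, 10 were also higher with cadmium, as were 72.9% of all protein-coding genes; 6 of the 12 were above the median of all genes, and 0 passed an adjusted p of 0.05. The log2 change of Gm3776 was 1.11 and that of Gsta1 0.72, while Ugdh (0.00) and Cyp3a11 (0.05) were below the median of all genes. Cyp7a1, higher in Se mice, was higher also in Cd+Se mice by a log2 change of 1.56 (limma adjusted p = 0.00722). Dusp6 was 23.46, 30.71, 20.80 and 36.25 TPM in Cd+Se mice and 31.80, 19.33, 18.45 and 33.05 TPM in Cd mice, with a log2 change of 0.13. The test of the difference between the diet effects gave a limma adjusted p of 0.0666 for Dusp6 and was above 0.05 for all 24 genes. Over all protein-coding genes, 45.2% lay on the same side of the median in both comparisons, and 49.4% of the 320 genes without overlap did.

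Across all genes the interaction passed an adjusted p of 0.05 in 122 of 11766 (1.04%), a count that was 348 without Se mouse 40, 2 without control mouse 29 and 15 to 48 without any other 1 of the 8 mice. Of the 106 that code for proteins, 93 were lower in Se than in control mice and higher in Cd+Se than in Cd mice. The interaction selects genes whose 2 changes differ, which favours opposite directions. Of all protein-coding genes, 72.9% were higher in Cd+Se than in Cd mice. The count of 93 is therefore a description of the selected genes. The sinusoidal endothelial markers had a median of -0.39 in Se against control and 0.30 in Cd+Se against Cd, and the MHC class II genes -0.51 and 0.34. The glutathione and NRF2 list had a median of 0.28 without cadmium and 0.07 with it, where all genes had 0.006 and 0.19.

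**Figure D5:**
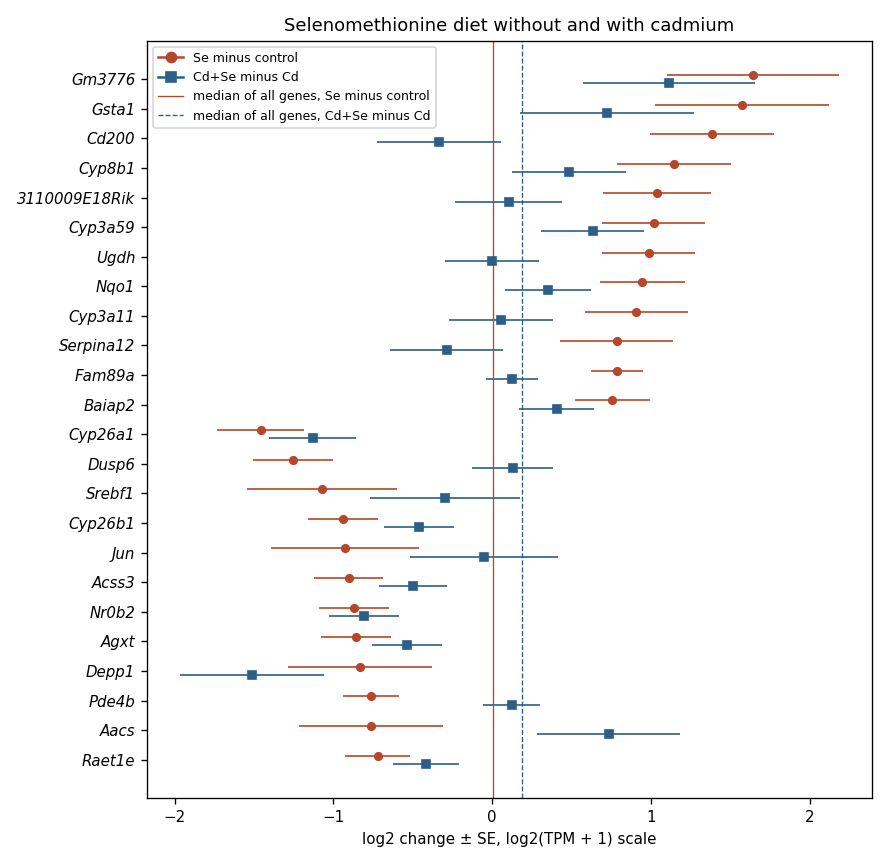
Log2 change ± SE (limma, log2(TPM + 1) scale) of the 24 genes without overlap in Se against control (circles), beside their change in Cd+Se against Cd (squares); the vertical lines are the medians over all protein-coding genes, 0.006 (solid) and 0.19 (dashed). The 2 comparisons share no mice. Cyp26a1 and Nr0b2 lie left of both lines in both comparisons. Dusp6 and Pde4b do so in Se against control, and lie between the lines in Cd+Se against Cd, at 0.13 and 0.12.

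Of 53 listed genes that were too low for the model but above 0 in some mouse, 3 reached the smallest p of the exact two-sided permutation test (0.0286): Etv5, Arntl and Cyp2b9. The lowest adjusted p over the 53 was 0.505. Arntl, which encodes the clock activator BMAL1, was 0.42 to 0.92 TPM in Se mice and 0.31 to 0.40 TPM in control mice. Cyp2b9 was 0.00 to 0.04 TPM in Se mice and 0.27 to 0.60 TPM in control mice. Slc7a11, the cystine transporter, was at most 0.08 TPM in any of these mice.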

How the data were processed

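The authors extracted liver RNA, and poly(A) libraries were built and sequenced by a company. They deposited 1 table of TPM for 57010 genes in 16 libraries, with Ensembl identifiers, biotypes and KEGG annotation. The submitters' processing notes name fastp, HISAT2, StringTie and the build GRCh38, although the identifiers are mouse; versions and read counts are not given in the sources used here. TPM keep no depth, so depth per library is unknown and no interval or detection floor from counts is given. Precision rests on 4 mice a group. The limma standard errors and p-values use a spread between mice estimated over all 16 libraries, including the mice given cadmium.

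Groups were taken from the treatment labels. Each title lists the number of 1 mouse with the endings rep1 and rep2, and the pair was deposited as 1 column. What the pair stands for is not given in the sources used here. Values were analysed as log2(TPM + 1). The 11766 genes of any biotype whose mean over 16 libraries reached 1 TPM were fitted with limma 3.58.1 (R 4.3.3) in 1 model with a mean for each of the 4 groups and an intensity trend, with Benjamini-Hochberg adjustment (threshold 0.05); 10483 protein-coding genes are described. A gene was "without overlap" where all mice of one group exceeded all of the other. Genes below the filter were compared by an exact two-sided permutation test (scipy 1.17.1). Scripts were tested on simulated data.

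Named genes were the 12 largest changes in each direction among protein-coding genes without overlap, 10 selenium, metal and stress genes, and the 4 members with the smallest p of each list (19 by function, 16 of cell markers) and of each named pathway (28 chosen by name, plus the 6 highest and 6 lowest medians among those with 15 to 200 genes). Members and lists were chosen with earlier results of these data known, and lists of retinoid, ERK feedback and MHC class II genes after the values were seen. Other genes named beside a list or pathway, such as Stab1, Kdr and those of the exact test, were chosen after their values were seen. Fasn and Gclm were named by the rule for a pathway and are described beside a list. Positions are from GENCODE M21 and promoters from RefSeq (both GRCm38), matched by identifier or symbol; all 34 leading genes had a position.

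Alternatives were a pseudocount of 0.1, no filter, a mean of at least 5 TPM, the filter on the 8 libraries compared, quantile normalization, centring on the library median, only the 2 groups, no trend, only protein-coding genes, and leaving out each of the 8 mice.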

Additional observations from a re-analysis of the deposited data

Results flagged for a closer look

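A mouse far from the 3 others of its group was looked for in 106 sets of 4 values, the 34 leading genes and the 19 function lists in each group; 7 sets exceeded Dixon's critical value, where chance gives about 5.3 (1 in 20). In brackets is how far that mouse lay from its neighbour, as a fraction of the range. Cd200 in Se mice had mouse 44 at 0.61 TPM below the others (0.866). Cyp3a59 had Se mouse 40 at 30.49 TPM (0.921). Aacs had Se mouse 41 at 12.17 TPM (0.8294). Selenow had control mouse 28 at 64.49 TPM (0.855). The cholesterol synthesis list had Se mouse 40 at 1.45 relative to all genes (0.901). The selenoprotein list had Se mouse 40 at -0.05 (0.842) and the PPARalpha target list had Se mouse 39 at -0.03 (0.924); in both the whole range was small.

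The diet effect with cadmium minus that without was looked at in the 210 genes named by the rule, and 5 passed an adjusted p of 0.05 in the limma interaction test. Steap4, lower in Se than in control mice and higher in Cd+Se than in Cd mice (log2 changes -0.58 and 1.33), had a difference of 1.91 (adjusted p = 0.0176). Lyve1, an endothelial marker, had log2 changes of -0.53 and 1.09 and a difference of 1.62 (adjusted p = 0.0434). Irgm2, an interferon-induced GTPase, had a difference of 1.21 (adjusted p = 0.0343). Acox3, a peroxisomal oxidase of branched fatty acids, had a difference of 0.99 (adjusted p = 0.0453), and Cyp2d26 a difference of 0.69 (adjusted p = 0.0453).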

How the results depend on the processing

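Depth could not be judged from TPM, and 4 mice a group set the precision. No paired analysis was possible because the groups share no mouse numbers. Of the 24 named genes without overlap, all kept their direction in each alternative that could be fitted, and 0 passed an adjusted p of 0.05 in any. Leaving out a mouse, or changing the pseudocount, filter, trend or groups fitted, cannot reverse a gene chosen for having no overlap. Only centring and quantile normalization could have changed a direction. The number of genes past an adjusted p of 0.05 in Se against control stayed at 0 except when 1 mouse was left out (0 to 2): Gm56451 and Gm49739 without Se mouse 41, both listed at 0 in every control mouse and in mouse 41, and Gm43108 without control mouse 30. Genes at an unadjusted p under 0.05 (383) numbered 626 with each library centred on its median, 614 with quantile normalization, 646 with no filter on low values and 214 with a mean of at least 5 TPM, and 267 to 448 when a mouse was left out. Of those calls 50.4% were higher in Se mice, and 27.1% without Se mouse 40, 69.7% without Se mouse 39 and 62.7% without Se mouse 41. Genes without overlap (320) numbered 184 with a mean of at least 5 TPM, which tests fewer genes, and 477 to 889 when a mouse was left out, which makes separation easier; 889 was without Se mouse 40, of which 18.0% were higher in Se mice, against 39.1% with all mice. The median change of all genes lay between -0.05 and 0.04 over all alternatives. Genes in Cd+Se against Cd numbered 1131 with no filter. The interaction numbered 731 with libraries centred, 524 with quantile normalization, 26 with no filter and 2 to 348 when a mouse was left out (2 without control mouse 29, 348 without Se mouse 40); the cause was not tested. Of 986 medians of lists and pathways recomputed, 981 moved by less than 1 SD between mice; the other 5 were 3 of the ERK feedback list (-0.66 with a pseudocount of 0.1, 0.05 with a mean of at least 5 TPM, -0.43 without control mouse 28), the IgA network (-0.29 with the filter on 8 libraries) and bile acid genes (-0.12 without Se mouse 40).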

Other observations

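Of the 106 protein-coding genes past an adjusted p of 0.05 in the interaction, 19 (17.9%) also had Se and control mice without overlap, against 320 of 10483 genes; both measures use the Se and control mice, so this is a description. Tlr3, a receptor for double-stranded RNA, was 2.03, 1.79, 2.23 and 2.59 TPM in Se mice 39, 40, 41 and 44 against 4.0, 4.32, 3.41 and 3.80 TPM in control mice. In the mice given cadmium the order was the other way, 2.66, 2.91, 1.91 and 2.96 TPM in Cd+Se mice 13 to 16 and 1.47, 1.49, 1.74 and 2.11 TPM in Cd mice. The log2 changes were -0.63 and 0.41, with a limma interaction adjusted p of 0.0218. Others were Fn1, the secreted matrix protein fibronectin (-0.32 and 0.49, interaction adjusted p = 0.0416), Nrp1, a co-receptor of vascular endothelial growth factor (-0.54 and 0.66, interaction adjusted p = 0.0421), and Abca1, the cholesterol exporter (-0.29 and 0.69, interaction adjusted p = 0.0415). These 4 genes were chosen after their values were seen.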
